A study of Homo sapiens with 8 samples.

Results

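Expression of 10 NF-kB pathway genes was followed in H1299, a human cell line from non-small cell lung carcinoma, after knockdown of USF1 or of UGT1A3. They comprise the cytokines LIF and IL6 and the chemokines CXCL1, CXCL2 and CXCL8. The others are the NF-kB subunit genes NFKB1 and RELA, BCL3, whose protein binds NF-kB subunits, and the inhibitors NFKBIA and TNFAIP3. The 10 genes were chosen by name, and every probe set annotated with exactly 1 of these symbols was taken, which gave 25 probe sets out of 49293 and 10 genes out of 18132 with a probe set of their own. RNA was hybridised to 8 one-colour Affymetrix arrays. Cells transfected with short hairpin RNA (shRNA) against USF1, a transcription factor of the basic helix-loop-helix leucine zipper class, filled 3 arrays and their controls 3 arrays. Cells transfected with shRNA against UGT1A3, an enzyme that conjugates glucuronic acid to lipophilic compounds, filled 1 array and their control 1 array. All groups were cultured in the same RPMI-1640 medium with serum and antibiotics, and the labels record no cytokine or other stimulus and do not say how many hairpins were used, what the control cells received or whether replicates came from separate cultures. The p-values therefore cover only the spread among these arrays, which may be technical, and the number of arrays limits the precision.

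NF-kB is a family of dimeric transcription factors, most often p50, made from NFKB1, paired with RELA (p65). In resting cells the dimer is held in the cytoplasm by IkB proteins such as NFKBIA, and signals from cytokine receptors lead to degradation of the inhibitor and entry of the dimer into the nucleus. There it binds kB sites near genes for cytokines and chemokines, and it also induces NFKBIA and TNFAIP3, which close a negative feedback loop.

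USF1 itself, through its single probe set, read 6.06, 5.88 and 6.13 log2 units on the USF1 knockdown arrays, against 6.31, 6.55 and 6.42 on their controls. It fell by 0.40 (SE 0.08, adjusted p = 0.00889 with limma) and kept 75.6% of its control value. UGT1A3 shared its 9 probe sets with other genes of the UGT1A locus and all were dim, so its knockdown could not be checked. The median log2 intensity was 6.53 to 6.55 on the USF1 arrays, against 5.63 and 5.59 on the UGT1A3 knockdown and control arrays, so each knockdown was compared only within its own set. Probe sets whose mean lay under the 40th percentile, 5.63 in the USF1 set and 4.76 in the UGT1A3 set, were called dim and left out of the tests. The USF1 readings in the knockdown lay not far above this limit. The 75.6% is thus a ratio of array signals near the limit, and the USF1 mRNA that remained was not measured in another way. The epithelial keratin KRT18 was bright, while EPCAM and CDH1, 2 defining markers of epithelial cells, were dim. Of 7 measured leukocyte markers CD68 alone was past the limit in the USF1 set and it did not pass the test (-0.09, adjusted p = 0.175), and the summed linear intensity of the 7 was 792 to 846 in USF1 knockdown arrays and 833 to 867 in controls. PTPRC, which defines leukocytes, was dim, with a mean of 3.28 in the controls.

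After USF1 knockdown LIF, CXCL2 and NFKB1 fell and BCL3 rose, while CXCL1, RELA, NFKBIA and TNFAIP3 did not pass the test and IL6 and CXCL8 were too dim to be tested. Of the 25 probe sets 16 were past the dim limit and 9 were not. Of these 16, 6 passed an adjusted p of 0.05, 1 higher and 5 lower, beside 37.3% of all 29576 tested probe sets, 19.8% higher and 17.5% lower. By genes, each read through its brightest probe set, 4 of 8 passed, beside 38.7% of 11448 genes, with 1 higher beside 20.9% and 3 lower beside 17.8%. The share of probe sets that changed was thus near the background. The median change over the 16 probe sets was -0.04, beside 0.01 over all tested probe sets, and the median size of a change was 0.10 beside 0.11. In bulk RNA of this kind fewer cells that express a gene and less RNA per cell cannot be told apart.

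**Figure D1:**
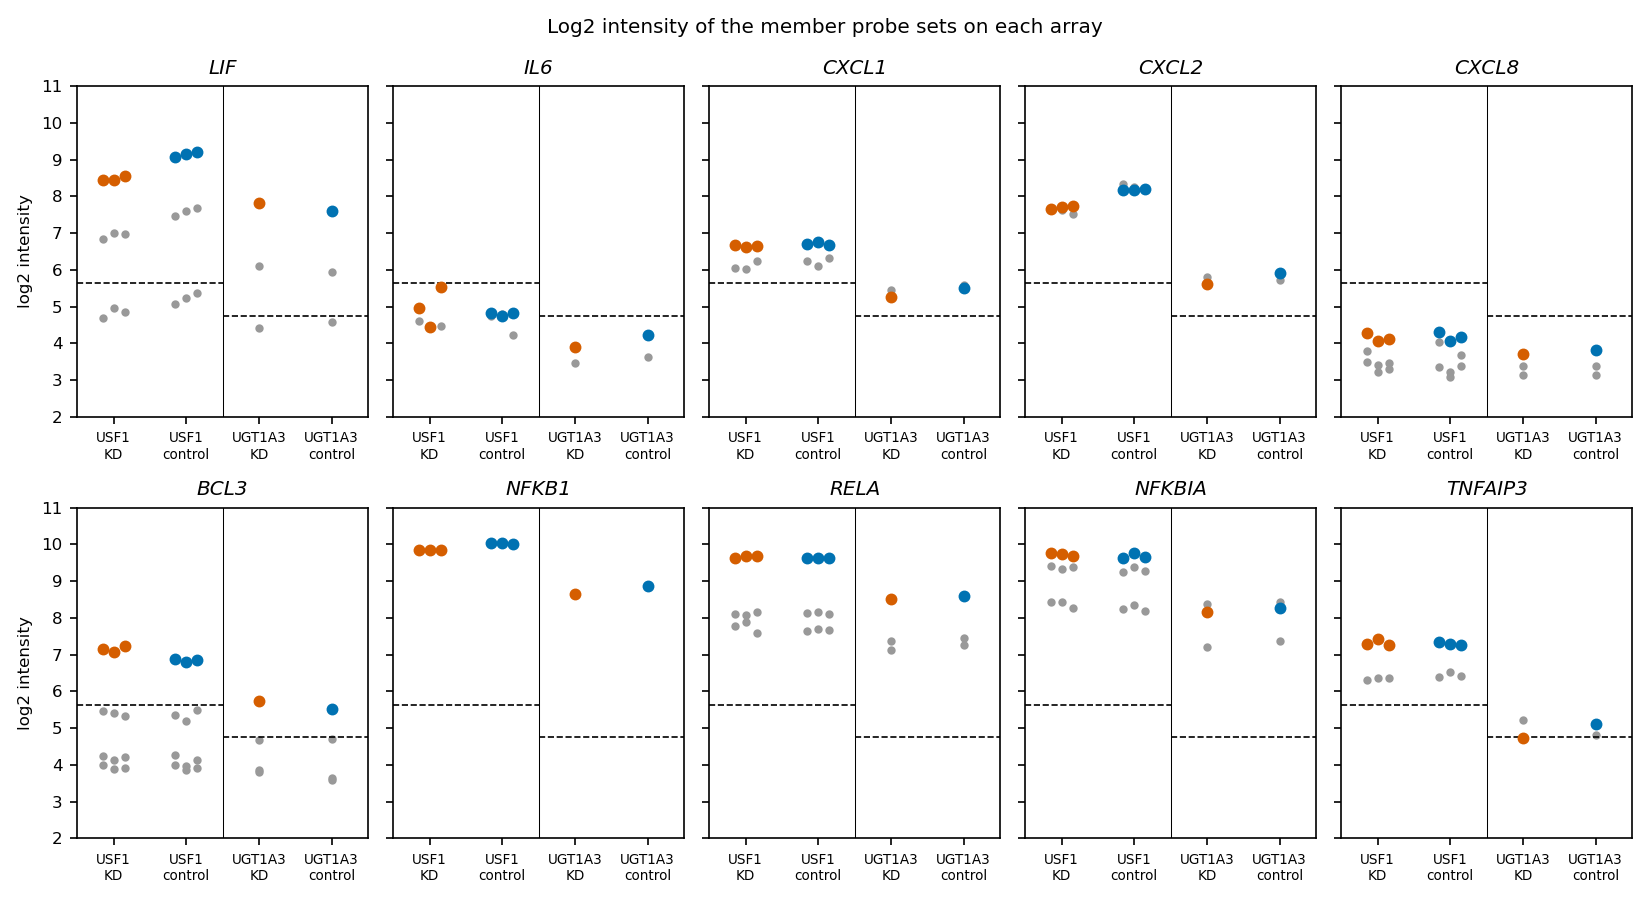
Log2 intensity (y axis) of all 25 probe sets on the 8 arrays, 1 panel per gene, with knockdown arrays in orange and control arrays in blue for the probe set brightest in the USF1 set, grey points for the other probe sets, and dashed lines at the dim limit of each set. LIF and CXCL2 lie lower on all 3 USF1 knockdown arrays than on the controls, BCL3 lies higher, and IL6 and CXCL8 lie under the limit.

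LIF, an interleukin-6 family cytokine that signals through the receptor LIFR and its partner gp130, fell on both of its bright probe sets. LIF lies at chr22:30240453-30246759 in GRCh38.p14. Its brightest probe set, 11758619_s_at, read 8.45, 8.45 and 8.55 on the USF1 knockdown arrays, against 9.08, 9.16 and 9.21 on the controls. The groups were wide apart, and every knockdown array lay well below the lowest control. LIF fell by 0.67 (SE 0.05, n = 3 against 3, adjusted p = 0.000175 with limma) and kept 63.0% of its control value. The 95% confidence interval of the change ran from -0.78 to -0.56. In order from the most lowered, it stood at place 210 of the 29576 tested probe sets.

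The second bright LIF probe set, 11726498_at, read 6.83, 7.0 and 6.98 in the knockdown, against 7.46, 7.59 and 7.67 in the controls. It gave a like fall of 0.64 (SE 0.07, adjusted p = 0.000712), again without overlap. The third, 11726497_at, was dim, with 4.68, 4.97 and 4.84 in the knockdown against 5.06, 5.23 and 5.38 in the controls. Its difference was -0.39, with an adjusted p of 0.0468 in a fit that kept dim probe sets. All 3 LIF probe sets were therefore lower in the knockdown arrays, with no overlap in any of them.

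IL6, the founding cytokine of the family and a classical NF-kB product, lies at chr7:22727200-22731998 and was dim in H1299 on both of its probe sets. The brighter, 11760425_a_at, read 4.96, 4.45 and 5.53 in the knockdown, against 4.83, 4.73 and 4.82 in the controls. The knockdown arrays lay on both sides of the controls and varied far more (SD 0.54) than the controls did (SD 0.06). The difference was 0.18 with a 95% interval of -0.41 to 0.78 in the fit that kept dim probe sets. The other IL6 probe set differed by -0.09, with an interval of -0.45 to 0.28. Both intervals are wide, so a moderate change of IL6 was not detectable with these arrays.

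The 3 chemokines belong to the ELR+ CXC group, which attracts neutrophils through the receptor CXCR2, and CXCL8 also acts through CXCR1. Their genes lie in 1 cluster on chromosome 4, with CXCL8 at chr4:73740569-73743716, CXCL1 at chr4:73869393-73871308 and CXCL2 at chr4:74097040-74099195. CXCL1 and CXCL2 are close relatives, and the 120 bases before their transcription starts are shown because they are nearly the same, while CXCL2 passed the test and CXCL1 did not. The stretches are from RefSeq on GRCh38.p14, given 5′ to 3′ in the direction of the gene, and capitals mark kB letters, GGG, any 5 bases and CC, on either strand, or the shorter GGAATTTCC, which can overlap them. They lie at chr4:74099196-74099315 on the minus strand for CXCL2, at chr4:73869273-73869392 on the plus strand for CXCL1 and at chr4:73740449-73740568 on the plus strand for CXCL8.
CXCL2: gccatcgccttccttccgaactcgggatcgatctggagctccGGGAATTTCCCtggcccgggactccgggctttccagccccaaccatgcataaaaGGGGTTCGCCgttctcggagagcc
CXCL1: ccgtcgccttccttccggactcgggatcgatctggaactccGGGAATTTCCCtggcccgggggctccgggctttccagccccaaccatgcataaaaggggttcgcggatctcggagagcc
CXCL8: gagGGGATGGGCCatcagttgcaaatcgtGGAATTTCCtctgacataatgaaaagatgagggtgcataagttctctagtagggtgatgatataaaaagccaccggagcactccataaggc
In a global alignment 113 of 121 columns (93.4%) were identical between CXCL2 and CXCL1, against 65 of 140 (46.4%) between CXCL2 and CXCL8. All 3 hold the letters GGAATTTCC, which were chosen for the search after these sequences had been seen. Of the 35116 promoter windows in the table, 0.413% hold these letters in the 250 bases before the start, and 54.4% hold the looser letters. A match of letters is a description of the sequence and does not show binding.

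CXCL2 fell on both of its probe sets after USF1 knockdown. The brighter, 11744127_at, read 7.64, 7.70 and 7.72 in the knockdown, against 8.16, 8.18 and 8.20 in the controls. The 2 groups were tight and far apart, and the fall of 0.49 (SE 0.03, adjusted p = 0.000172) left 71.1% of the control level. The other, 11744128_x_at, read 7.63, 7.63 and 7.53 against 8.34, 8.26 and 8.19 in the controls and fell by 0.66 (SE 0.05, adjusted p = 0.00023). An identifier ending in _x_at marks a probe set with probes that can match other sequences, but the first CXCL2 probe set carries no such ending and gave the same direction.

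CXCL1 read 6.67, 6.62 and 6.65 in the knockdown on 11719366_s_at, against 6.69, 6.75 and 6.68 in the controls. The groups did not overlap, but the gap was narrow and the difference of -0.06 (SE 0.03, adjusted p = 0.185) did not pass; 51.2% of all tested probe sets had groups that did not overlap, and 8 of the 16 here. The second CXCL1 probe set, 11754114_a_at, differed by -0.11 (SE 0.08, adjusted p = 0.298) with overlap. The 95% interval of the first ran from -0.14 to 0.02, so a fall of the size seen for CXCL2 lay outside it. In the USF1 controls this first CXCL1 probe set stood at percentile 51.7 to 52.3, against 68.7 to 69.1 for CXCL2 on 11744127_at. Whether the lower signal made a change harder to see was not tested.

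The difference between the 2 chemokines was examined on each array as CXCL2 minus CXCL1, which was 0.98 to 1.08 in the knockdown and 1.43 to 1.52 in the controls. The change of CXCL2 minus that of CXCL1 was -0.43, without overlap, and the two-sided exact permutation test gave p = 0.1, the smallest that 3 arrays against 3 allow. A probe set annotated to both genes, 11763250_x_at, which counts for neither, differed by -0.08 (SE 0.12, adjusted p = 0.621). CXCL8, the gene for interleukin-8, was dim on all 3 probe sets, and its brightest read 4.28, 4.06 and 4.12 in the knockdown against 4.30, 4.05 and 4.18 in the controls. Its 3 differences ran from -0.09 to 0.06, with the groups overlapping on each.

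BCL3, an atypical nuclear IkB protein that binds p50 and p52 homodimers, was the gene of the 10 that rose. It lies at chr19:44747705-44760044. Its brightest probe set, 11725445_x_at, read 7.16, 7.08 and 7.24 in the knockdown, against 6.87, 6.80 and 6.84 in the controls, without overlap. The rise was 0.32 (SE 0.05, 95% interval 0.21 to 0.43, adjusted p = 0.00235), or 125% of the value in controls. The call rests on this 1 probe set, whose identifier ends in _x_at. The 3 other BCL3 probe sets were dim and differed by -0.001 to 0.07, with 95% intervals that reached no higher than 0.26.

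NFKB1, the gene of p105 and its product p50, lies at chr4:102501359-102617302 and had the smallest spread within both groups of the 25 probe sets. Its single probe set read 9.85, 9.84 and 9.84 in the knockdown, against 10.02, 10.02 and 10.01 in the controls. The fall was small but larger than the spread within either group, with SDs of 0.0074 in the knockdown and 0.0086 in the controls (-0.18, SE 0.03, adjusted p = 0.00345), and it kept 88.4% of its control value. It was lower in 3 of 3 knockdown arrays.

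RELA, the p65 subunit with the transactivation domain, had 3 bright probe sets, and none passed. The brightest, 11745440_s_at, read 9.62, 9.69 and 9.68 in the knockdown against 9.62, 9.62 and 9.64 in the controls, a difference of 0.04 (SE 0.03, 95% interval -0.04 to 0.12, adjusted p = 0.425). The others differed by -0.02 and 0.08, with the groups overlapping on each. The last of these, 11718103_a_at, read 7.59 on the third knockdown array and 7.77 and 7.88 on the other two, and without that array it passed (0.16, adjusted p = 0.0395).

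The inhibitors NFKBIA and TNFAIP3 were bright and did not pass on any probe set. The sequences before NFKB1 and NFKBIA, with a short stretch of TNFAIP3, are shown because p50 and RELA dimers are known to act on these 3 genes. They lie at chr4:102501239-102501358 on the plus strand, chr14:35404750-35404869 on the minus strand and chr6:137867181-137867201 on the plus strand, the last within the annotated span of TNFAIP3. Capitals mark the same kB letters and, in TNFAIP3, also the E-box letters CACGTG, to which USF1 is known to bind.
NFKB1: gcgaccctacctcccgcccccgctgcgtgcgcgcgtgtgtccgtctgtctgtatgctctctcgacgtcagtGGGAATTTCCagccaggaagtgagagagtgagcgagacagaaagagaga
NFKBIA: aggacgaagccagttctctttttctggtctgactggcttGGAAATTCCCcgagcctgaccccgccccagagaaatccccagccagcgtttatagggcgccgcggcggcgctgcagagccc
TNFAIP3: CACGTGactttGGAAAGTCCC
Promoter windows were found for 9 of the 10 genes, all but LIF, and NFKB1 and RELA had 2 windows each. TNFAIP3 was the 1 gene of the 9 with CACGTG, beside 6.34% of all windows in the 250 bases before the start. All 9 held the looser kB letters in that window, and 5 held GGAATTTCC, namely CXCL1, CXCL2, CXCL8, NFKB1 and NFKBIA.

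NFKBIA, which encodes IkB-alpha, read 9.76, 9.74 and 9.69 on 11757894_x_at in the knockdown, against 9.64, 9.75 and 9.66 in the controls. The groups overlapped, and the difference was 0.05 (SE 0.04, 95% interval -0.05 to 0.15, adjusted p = 0.398). Its other 2 probe sets differed by 0.06 and 0.11. TNFAIP3, which encodes the ubiquitin-editing enzyme A20, read 7.29, 7.41 and 7.26 in the knockdown on 11718939_s_at, against 7.34, 7.29 and 7.25 in the controls. Its difference of 0.03 (SE 0.05, adjusted p = 0.674) lay within the spread and turned sign without the second knockdown array (-0.02). The other TNFAIP3 probe set, 11718940_a_at, differed by -0.10 (SE 0.04, adjusted p = 0.121) without overlap, so the pair had opposite signs and neither passed.

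**Figure D2:**
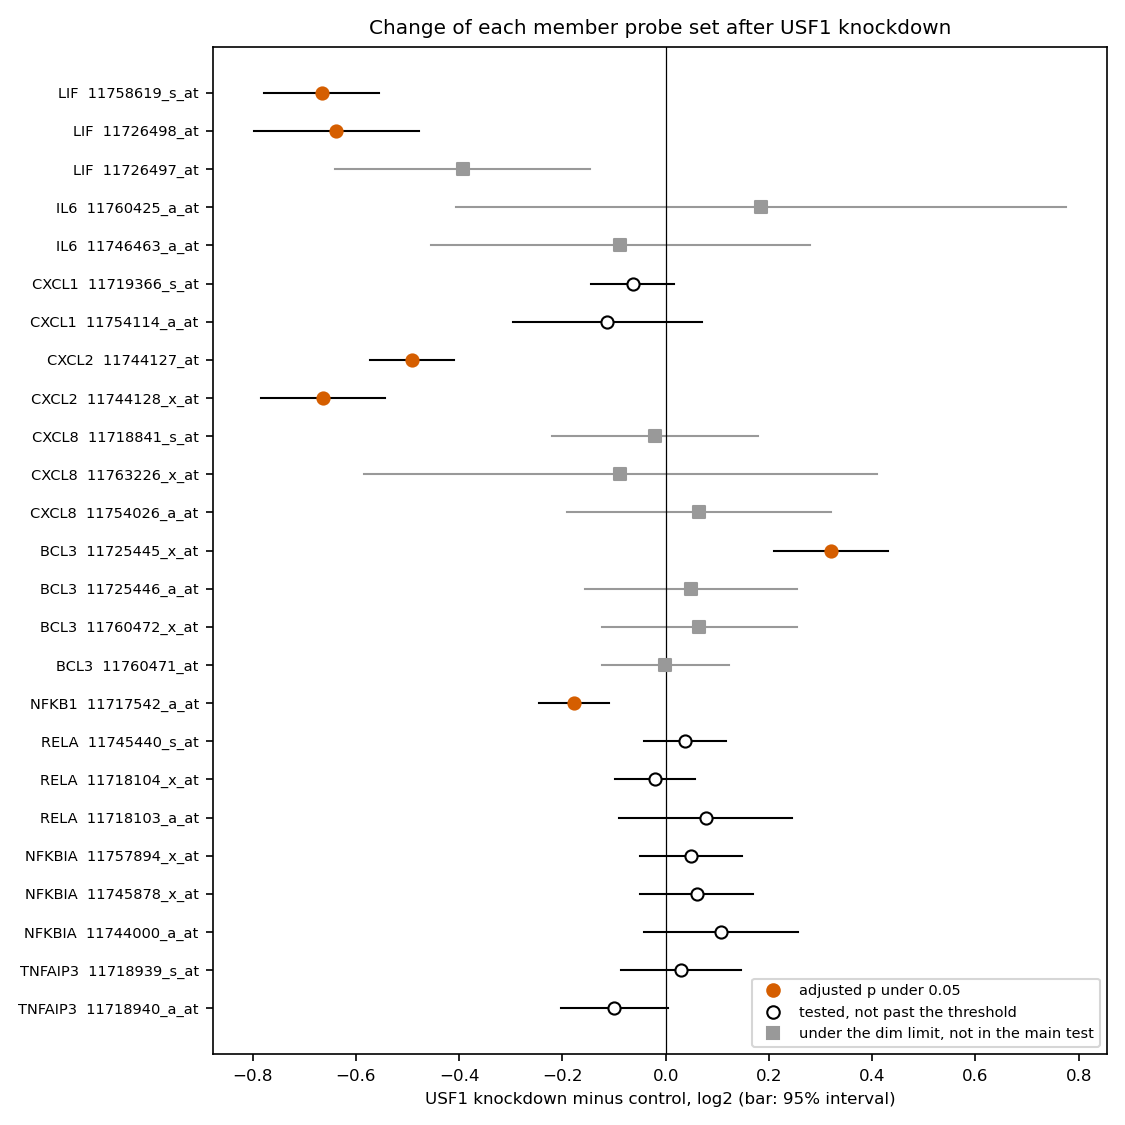
USF1 knockdown minus control (x axis, log2) for each of the 25 probe sets, with 95% intervals from limma as bars, filled circles past the threshold, open circles tested and not past it, and grey squares under the dim limit with intervals from the fit that kept dim probe sets. The 2 bright LIF and 2 CXCL2 probe sets lie between -0.67 and -0.49, and the BCL3 probe set at 0.32.

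In the UGT1A3 pair, with 1 array a group, there is no replicate check and no test. The same 16 probe sets were past the dim limit of that set. None differed by 1.5-fold or more, beside 3.48% of 29581 probe sets. The widest differences, -0.36 and 0.42, both belonged to TNFAIP3 and pointed opposite ways: 11718939_s_at read 4.74 in the knockdown array and 5.10 in the control, and 11718940_a_at read 5.23 in the knockdown array and 4.80 in the control. The value of 4.74 lay under the dim limit of that set, 4.76, and that of 4.80 just over it. Of the 16 probe sets 11 were lower in the knockdown array, beside 46.4% of all, with a median difference of -0.09 beside 0.01. This count takes probe sets of the same gene separately, and every probe set of RELA and NFKBIA is among the lower ones. By genes, CXCL1, NFKB1, RELA and NFKBIA were lower on their bright probe sets and LIF and BCL3 higher. CXCL2 and TNFAIP3 pointed both ways. The median size of a difference was 0.16 over the 16 and 0.16 over all. The 7 leukocyte markers summed to a linear intensity of 379 in the UGT1A3 knockdown array and 306 in its control. Most of both sums came from CD68, which read 8.18 log2 units in the knockdown array and 7.71 in the control. Past the limit were CD68 (0.47), CSF1R (-0.12) and CD3E (-0.28), so the 3 did not point the same way, and PTPRC was dim. The part of these markers in the differences was not tested.

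LIF read 7.81 in the UGT1A3 knockdown array and 7.61 in its control, a difference of 0.20, and its second bright probe set differed by 0.16. Both bright LIF probe sets were thus higher in this knockdown and lower in the USF1 knockdown, while the dim one differed by -0.16. CXCL2 read 5.62 against 5.92 in the control on 11744127_at, a difference of -0.29, but its other probe set differed by 0.09. CXCL1 differed by -0.24 and -0.15. BCL3 read 5.72 in the knockdown array and 5.52 in the control, and NFKB1 read 8.66 against 8.87 in the control. These differences, 0.21 for BCL3 and -0.21 for NFKB1, had the same signs as after USF1 knockdown. RELA differed by -0.15 to -0.08 and NFKBIA by -0.16 to -0.07, each lower on all 3 probe sets. IL6 and CXCL8 were dim here too, with differences of -0.32 and -0.16 for IL6 and of -0.09 to 0.00 for CXCL8.

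**Figure D3:**
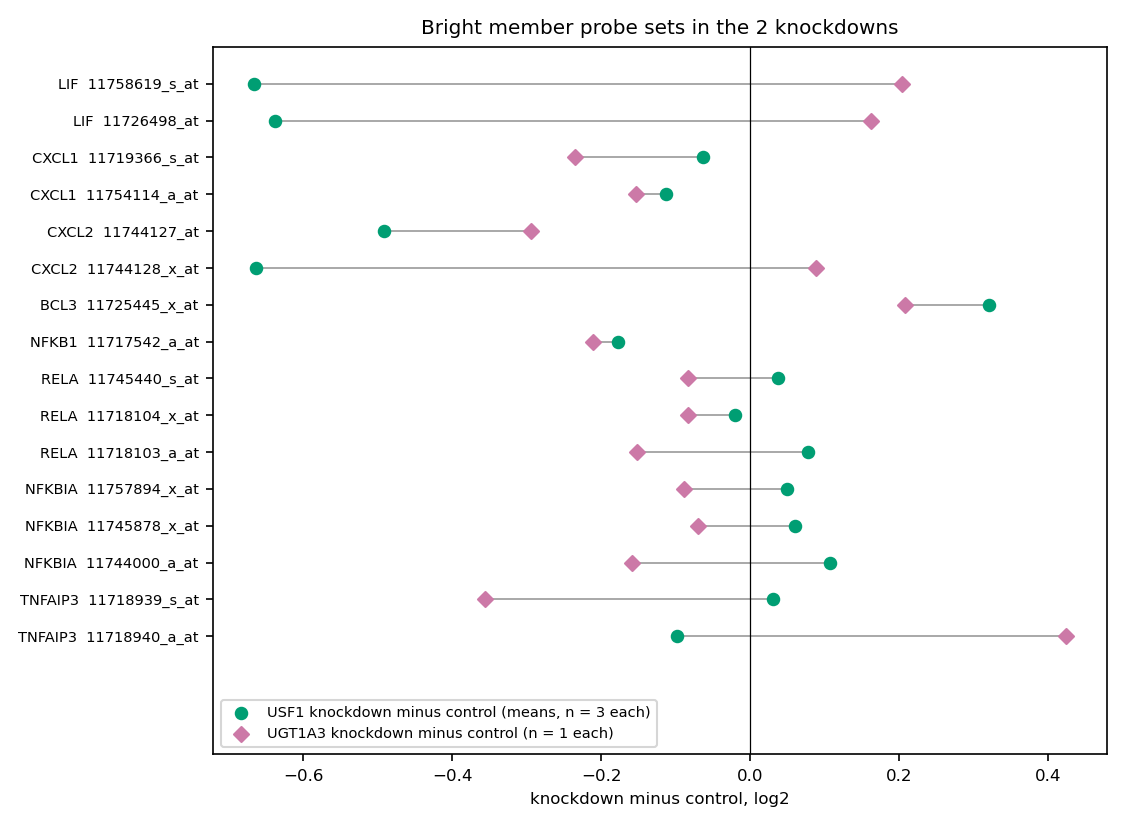
Knockdown minus control (x axis, log2) for the 16 probe sets past the dim limit, with circles for USF1 (means of 3 arrays each) and diamonds for UGT1A3 (1 array each). The LIF probe sets lie at -0.67 and -0.64 for USF1 and at 0.20 and 0.16 for UGT1A3, on opposite sides of 0.

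The wider pathway was read from lists of other genes, each through its brightest probe set. Of 32 tested genes that carry the signal from receptors to NF-kB, 11 rose and 8 fell after USF1 knockdown (59.4%, beside 38.7% of all genes), with a median change of 0.06 beside 0.01. The count of rises was lower when some single arrays were left out. Without control array 1, 6 rose and 7 fell, and without knockdown array 1, 6 and 8. Without control array 3, 7 rose and 6 fell. Calls over all tested probe sets were also fewer in these fits, at 8182, 8533 and 8270 in place of 11030. TRAF3, an adaptor that restrains the noncanonical branch, read 10.45, 10.42 and 10.42 in the knockdown against 11.03, 11.07 and 11.06 in the controls and fell by 0.63 (SE 0.03, adjusted p = 5.12e-05). The bright TRAF3 probe sets disagreed, at -0.63 to 0.19, and the mean over its probe sets fell by 0.10. RNF31 and SHARPIN, subunits of the linear ubiquitin ligase complex, rose by 0.30 (adjusted p = 0.00206) and 0.25 (adjusted p = 0.00242). IL1RAP, a subunit of the interleukin-1 receptor, read 8.63 in the UGT1A3 knockdown array and 8.10 in its control, the widest difference of this list in that pair.

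Of 15 tested brakes on the pathway besides NFKBIA and TNFAIP3, 2 rose and 0 fell (13.3%, beside 38.7%), with a median of 0.05. TNIP1, a partner of A20, read 9.21 on each knockdown array against 8.89, 8.97 and 9.0 in the controls and rose by 0.26 (adjusted p = 0.00232), and it was 0.29 higher in the UGT1A3 pair. N4BP1, a ubiquitin-binding inhibitor of NF-kB signalling, rose by 0.17 (adjusted p = 0.03), but this call held only when knockdown array 3 was the one left out: without control array 1, 2 or 3 its adjusted p was 0.0842, 0.0575 or 0.0928, and without knockdown array 1 or 2 it was 0.0943 or 0.0752. The count of 2 became 1 without any 1 control array or without knockdown array 2. Those fits gave 8182 to 10216 calls over all probe sets in place of 11030. NFKBIE, the gene of IkB-epsilon, differed by 0.13 (adjusted p = 0.0686) and passed without knockdown array 1 (0.17, adjusted p = 0.0479) and under 5 of the other alternatives.

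Of 38 listed genes known as NF-kB targets, 35 had a probe set of their own and 18 were bright enough to test. TNF, IL1A, IL1B, CCL2 and CCL5 were among the dim ones, so the share leaves these cytokine targets out. Among the 18 tested, 3 rose and 2 fell (27.8%, beside 38.7%), with a median of 0.01. SDC4, a cell-surface proteoglycan, read 9.95, 10.05 and 9.95 in the knockdown against 10.68, 10.66 and 10.63 in the controls, a fall of 0.67 (SE 0.04, adjusted p = 9.49e-05). EFNA1, an ephrin ligand, rose by 0.45 (SE 0.05, adjusted p = 0.000597) and was 0.42 higher in the UGT1A3 pair. NINJ1, a membrane protein of plasma membrane rupture, rose by 0.29 (adjusted p = 0.002). CD83, a surface molecule of dendritic cells, differed by 0.02 after USF1 knockdown (adjusted p = 0.763) and by -0.47 in the UGT1A3 pair. Of 17 other CXC chemokine ligands and receptors 2 were bright enough to test, CXCL16 at -0.07 (adjusted p = 0.619) and the decoy receptor ACKR1 at -0.02 (adjusted p = 0.877), which differed by -0.44 in the UGT1A3 pair.

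Of 19 tested genes of the gp130 and STAT3 list, through which LIF signals, 5 rose and 3 fell (42.1%, beside 38.7% of all genes), with a median of 0.01. The share that changed was near the background, and the count became 3 risen and 3 fallen without control array 1 or without knockdown array 3. Over all probe sets these 2 fits gave 8182 and 10243 calls in place of 11030. LIFR, the receptor of LIF, read 6.70, 6.51 and 6.61 in the knockdown, against 5.65, 5.99 and 5.95 in the controls, and rose by 0.74 (SE 0.10, adjusted p = 0.0016). The lowest control array lay close to the dim limit, and in the UGT1A3 pair LIFR was dim. STAT3, the transcription factor activated by this receptor, rose by 0.29 (SE 0.04, adjusted p = 0.00156). CEBPB, a transcription factor of the acute phase response, read 8.37, 8.36 and 8.36 against 9.10, 9.0 and 8.87 in the controls and fell by 0.62 (SE 0.06, adjusted p = 0.00045). The other 5 that passed are named after their values were seen. IL6ST, which encodes gp130, rose by 0.16 (adjusted p = 0.00809). PIM1, a kinase gene induced by STAT3, fell by 0.32 (adjusted p = 0.00165), and PTPN11, which encodes the phosphatase SHP2, fell by 0.21 (adjusted p = 0.00541). JAK1, a kinase bound to gp130, rose by 0.15 (adjusted p = 0.0271), with an adjusted p of 0.0874 or 0.0824 without control array 1 or 2 and of 0.0795 or 0.0552 without knockdown array 1 or 3. Without the dim limit the adjusted p of JAK1 was 0.0785. IL11, a cytokine of the same family, rose by 0.18 (adjusted p = 0.0238), with an adjusted p of 0.0738 or 0.0587 without control array 1 or 3 and of 0.0607 or 0.0553 without knockdown array 2 or 3. The adjusted p of IL11 was 0.107 with an intensity trend and a robust prior, and 0.0649 without the dim limit. SOCS3, the feedback inhibitor of gp130, differed by -0.02 (adjusted p = 0.917) and by -0.36 in the UGT1A3 pair.

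Of 10 genes that control the decay of cytokine mRNAs, 3 rose and 5 fell (80%, beside 38.7%), with a median of -0.09. The split depended on the probe sets used: as means over probe sets 4 rose and 2 fell. Without the dim limit 1 rose and 2 fell, with 8039 of all probe sets called in place of 11030. Bright probe sets disagreed in sign for the fallen genes HNRNPD (-0.34 to 0.38), ZFP36L1 (-0.19 to 0.27) and ZFP36L2 (-0.12 to 0.01). RC3H2, which encodes the RNA-binding protein roquin-2, read 9.72, 9.72 and 9.65 in the knockdown against 10.15, 10.07 and 10.15 in the controls and fell by 0.43 (SE 0.04, adjusted p = 0.00042). Its paralogue RC3H1 differed by 0.06 on its brightest probe set (adjusted p = 0.296), passed as the mean of its probe sets (0.13, adjusted p = 0.0261) and was 0.29 higher in the UGT1A3 pair. ZFP36, or tristetraprolin, which binds AU-rich elements, fell by 0.21 (adjusted p = 0.0167), and its adjusted p was 0.0611 without control array 1 and 0.053 without control array 3. ZC3H12C, a relative of the RNase regnase-1, rose by 0.23 (adjusted p = 0.0158), and its adjusted p was 0.0505 without knockdown array 1 and 0.0564 without control array 3. The count of 8 called genes became 3 without control array 1 or knockdown array 1, 5 without control array 2 or knockdown array 2, and 1 without control array 3. Calls over all probe sets fell as well in these fits, to between 8182 and 10216 in place of 11030. In the UGT1A3 pair no gene of these lists past the dim limit of that set differed by 1.5-fold or more, beside 3.56% of 11620 genes past it.

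**Figure D4:**
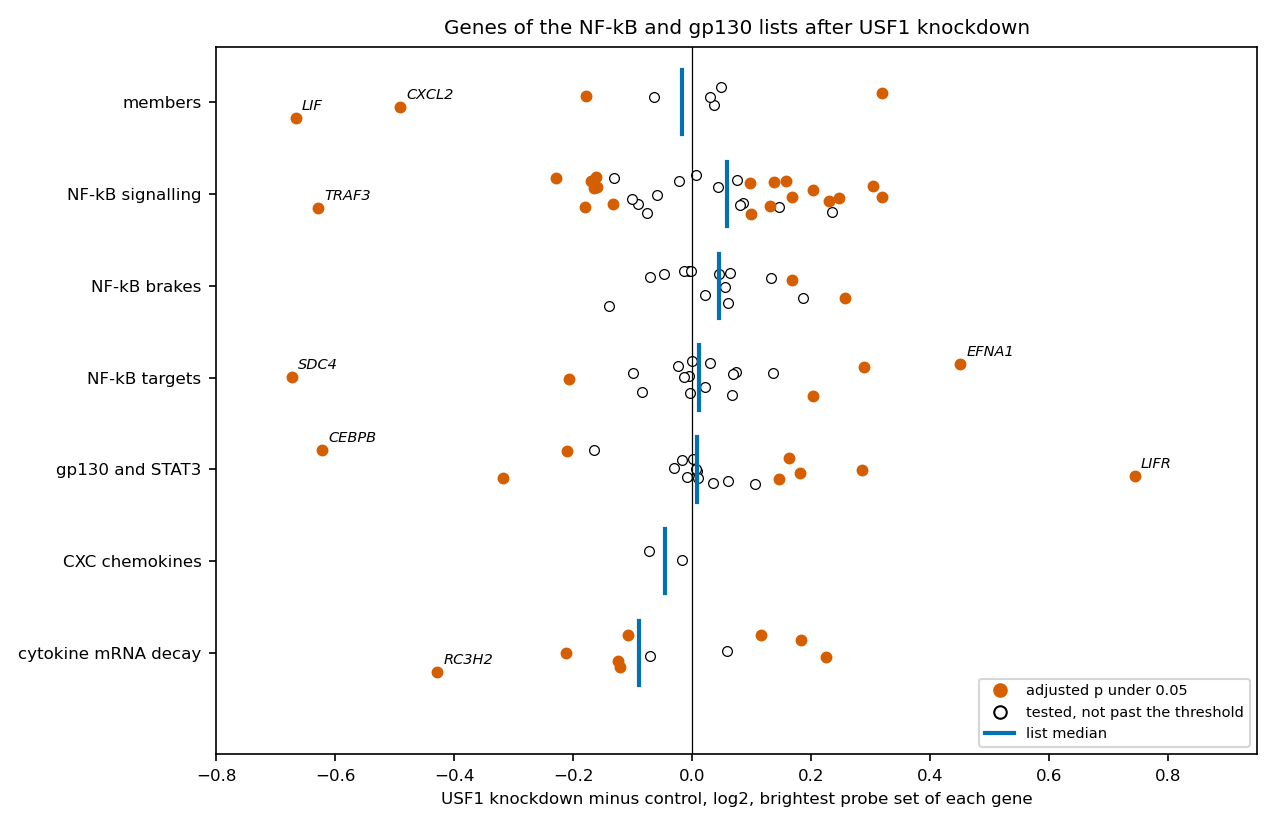
USF1 knockdown minus control (x axis, log2) for every tested gene of each list, with filled points past the threshold, open points not past it and a blue bar at the list's median. List medians lie between -0.09 and 0.06, while LIF, SDC4, TRAF3 and CEBPB lie between -0.67 and -0.62 and LIFR at 0.74.

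Genes with the profile most like a member's were taken by the root mean square difference over the 8 arrays, after each set was set to its control mean, among 11082 genes. Nearest to LIF were EXTL2, at 0.03, and CD200, at 0.04, which fell by 0.68 each after USF1 knockdown and were 0.19 and 0.14 higher in the UGT1A3 pair. Nearest to CXCL2 were FBRSL1 and RIOK1, at 0.03 each, with changes of -0.52 and -0.47 after USF1 knockdown. Nearest to BCL3 were SURF1 and CREB3, at 0.04 each, with changes of 0.34 and 0.31. The like changes of these genes follow from how they were chosen and are no separate result. The single UGT1A3 control array is 0 for every gene after this step and adds nothing to the distance.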

How the data were processed

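RNA from 8 samples was measured on Affymetrix arrays. The authors deposited 1 table of log2 intensities for 49395 probe sets, and their range gave the base of the logarithm. MAS5 is listed per the submitters' processing notes, with no role or version. Some values coincided between arrays. TNIP1 read 9.2132 on USF1 knockdown arrays 2 and 3, and CXCL8 probe sets 11763226_x_at and 11754026_a_at differed by 0 in the UGT1A3 pair. Whether the processing drew arrays together, and so made SDs small, was not tested. How arrays were scaled to each other was not given in the sources used here, so scaling was varied as an alternative. The 102 control probe sets were left out. Gene names came from the platform annotation, in which 44988 probe sets had 1 symbol, 1832 several and 2473 none. Of those with 1 symbol, 44961 matched a RefSeq gene table of GRCh38.p14.

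Every probe set at or above the 40th percentile of means was fitted with limma 3.58.1 in R 4.3.3 (lmFit and eBayes) on the 3 USF1 knockdown and 3 USF1 control arrays, without a replicate block. P-values are two-sided and adjusted by the Benjamini-Hochberg method over 29576 probe sets, with a threshold of 0.05. Changes are knockdown minus control in log2 units, SE is the moderated standard error, and SD is over the 3 arrays of a group. The UGT1A3 pair gave differences only. The dim probe sets were described from a fit without the limit. When tested on simulated data, the fit missed the share of 1.5-fold changes first asked of it, and it was then judged by sign, size and false calls, criteria set after that result was seen; the fit was not changed.

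The genes and lists were chosen with earlier results of these data known. The text names all 10 genes, the shRNA targets, and for each other list the 3 genes with the smallest adjusted p and the 1 with the widest difference in the UGT1A3 pair. It also names the 2 genes nearest in profile to each of LIF, CXCL2 and BCL3. Outside this rule it names the other 5 genes of the gp130 and STAT3 list that passed, and some genes that show limits of a list. Both were chosen after the values were seen. Marker lists covered epithelial and lung cells, leukocytes, fibroblasts and endothelium. Of the 8 measured epithelial and lung markers 4 were bright and 1 rose, KRT8 (0.25, adjusted p = 0.00278). Of 5 fibroblast and 5 endothelial markers 1 and 2 were bright, and 0 passed with limma. Promoters came from a RefSeq table and were aligned with Biopython 1.88.

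The alternatives were quantile normalization, centring on array medians, no dim limit, that limit raised to percentile 60, an offset of 16 intensity units, 1 probe set per gene or the mean of all, an intensity trend with a robust prior, a replicate block, leaving out each USF1 array, and, added after the data were seen, leaving out probe sets ending in _x_at. Whether replicate numbers pair the arrays is not known. Residuals of same-numbered knockdown and control arrays correlated at -0.088, 0.17 and 0.081, and with 3 arrays a group these values cannot settle it.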

Additional observations from a re-analysis of the deposited data

Results flagged for a closer look

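The bright LIF probe sets differed in opposite directions in the 2 knockdowns. The brightest was lower on every USF1 knockdown array than on any USF1 control (-0.67) and higher on the UGT1A3 knockdown array than on its control (0.20). The second gave -0.64 and 0.16, while the dim one was lower in both (-0.39 and -0.16). The UGT1A3 value rests on 1 array against 1, and the median size of a difference over all bright probe sets of that pair was 0.158. The difference between the 2 effects was not tested, since the UGT1A3 set has 1 array a group.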

How the results depend on the processing

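LIF, CXCL2 and NFKB1 kept their direction and their side of the threshold in all 16 settings, and BCL3 in the 13 that gave it a value. BCL3 was under the limit at the 60th percentile and as a mean of its probe sets, and had no value without _x_at probe sets, so 3 of the genes passed there in place of 4. Between 4 and 7 of the 25 probe sets passed over the alternatives, and between 8039 and 12748 of all probe sets. Leaving out 1 array gave 8182 to 10243 calls, with 6 to 7 probe sets and 4 of the 10 genes. The replicate block gave 9999 calls in place of 11030 and left 6 probe sets and 4 genes, and not every array correlated best with its own number. With the block the count of called brakes was 4 in place of 2, that of mRNA decay genes 4 in place of 8, and NFKBIE passed (adjusted p = 0.0457). NFKBIE also passed with median centring (0.0498), the limit at the 60th percentile (0.0311), the probe set mean (0.047) and the robust prior (0.0165). No UGT1A3 setting put a probe set of the 10 genes past 1.5-fold. Some values that had not passed turned sign. As means over probe sets, TNFAIP3 was -0.0346 and SOCS3 0.0102. When 1 array was left out, TNFAIP3 ranged from -0.0152 to 0.0602, CD83 from -0.0157 to 0.0686, SOCS3 from -0.0856 to 0.104, CXCL16 from -0.162 to 0.00503 and ACKR1 from -0.0749 to 0.0646. The cause was not tested. Dim IL6 and CXCL8 signals and 3 arrays a group limit what could be seen.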

Other observations

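The 2 sets of controls placed some of the genes at different ranks among all probe sets. These percentiles are ranks within each array, and they were not tested, since the UGT1A3 set has 1 control array. CXCL2 stood at percentile 53.8 in the UGT1A3 control and at 68.7 to 69.1 in the USF1 controls. TNFAIP3 stood at percentile 44.0 in the UGT1A3 control and at 58.1 to 59.2 in the USF1 controls on 11718939_s_at. On its other probe set, 11718940_a_at, the gap was smaller, with 40.5 against 48.4 to 49.7. NFKB1 stood at 87.0 in the UGT1A3 control and at 87.6 to 87.8 in the USF1 controls. The set of arrays and the state of the cells cannot be told apart here.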
